A study of Mus musculus with 12 samples.

Results

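The insulin-like growth factor (IGF) system was described through 9 genes, matched by exact symbol: the ligands Igf1 and Igf2, the receptors Igf1r and Igf2r, and the binding proteins Igfbp3, Igfbp4, Igfbp5, Igfbp6 and Igfbp7. They are 9 of the 21936 genes listed in the deposited files. The series compared skeletal muscle of C57BL/6N mice at 3 months of age that were either knockout for PTRF, labelled as having muscular dystrophy, or wild type, labelled as normal. PTRF is the caveolar coat protein encoded by Cavin1. Poly(A) RNA was sequenced from 12 samples labelled soleus or quadriceps, but each quadriceps sample repeats the values of the soleus sample of the same genotype and number, with a largest difference of 0, so 6 distinct libraries were used, 3 knockout and 3 wild type. The labels give no allele for the deletion, do not say in which cells it acts, and do not say whether the numbered samples are separate mice, so the error terms may be technical.

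IGF1 and IGF2 are small secreted hormones related to insulin that signal through the tyrosine kinase receptor IGF1R to the PI3 kinase, AKT and MTOR pathway and to the ERK kinases. IGF2R is a mannose phosphate receptor with no kinase activity that carries IGF2 to lysosomes. The binding proteins hold the ligands outside the cell, and depending on the protein and on its proteolysis they limit, prolong or localise ligand action. In skeletal muscle the system is known for fibre growth, differentiation of myoblasts and repair, where fibres, fibroblasts, endothelium and macrophages can all supply its parts.

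The 250 bases before the RefSeq start are shown for Igfbp4, Igfbp6 and Igfbp7, the 3 binding proteins that were called higher in the knockout on all scales and with any 1 library left out, and whose windows overlap no annotated exon. Capitals mark matches, on either strand, to a TATA box (TATAAA), a GC box (GGGCGG), an E-box (CANNTG) or a STAT site (TTCNNNGAA). Windows are given 5′ to 3′ on the strand of the gene, in build GRCm38.p6. Igfbp4 lies at chr11:99040994-99041243 (plus strand), Igfbp6 at chr15:102143936-102144185 (plus strand) and Igfbp7 at chr5:77408046-77408295 (minus strand).
Igfbp4: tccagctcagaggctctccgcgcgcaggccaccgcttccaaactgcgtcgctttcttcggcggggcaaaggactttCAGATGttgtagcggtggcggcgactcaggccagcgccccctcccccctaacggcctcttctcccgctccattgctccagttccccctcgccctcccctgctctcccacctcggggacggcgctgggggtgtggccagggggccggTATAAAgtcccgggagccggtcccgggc
Igfbp6: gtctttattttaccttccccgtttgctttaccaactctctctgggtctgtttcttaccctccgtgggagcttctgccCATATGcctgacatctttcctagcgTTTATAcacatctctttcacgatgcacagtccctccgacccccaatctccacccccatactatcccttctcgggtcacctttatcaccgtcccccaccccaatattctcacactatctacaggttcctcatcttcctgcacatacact
Igfbp7: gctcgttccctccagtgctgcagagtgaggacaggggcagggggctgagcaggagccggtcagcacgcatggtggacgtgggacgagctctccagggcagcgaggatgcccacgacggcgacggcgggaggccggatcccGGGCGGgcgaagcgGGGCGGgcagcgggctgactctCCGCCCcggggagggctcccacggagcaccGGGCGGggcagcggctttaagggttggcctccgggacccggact

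These windows differ in content. The Igfbp4 window has a TATA box whose first base lies 28 bases before the start and no GC box, the Igfbp6 window has a TATA box at 148 bases on the opposite strand, and the Igfbp7 window has 4 GC boxes, the nearest at 44 bases, and no TATA box. These distances are from the RefSeq start. For Igfbp6 that start lies upstream of the gene start given by GENCODE, so the distance depends on the annotation. The GC content of the windows was 69.2% for Igfbp4, 49.6% for Igfbp6 and 74.0% for Igfbp7. All 9 members matched the RefSeq table, with 12 starts in all, 4 of them for Igf2. A TATA box was found upstream of 2 of the 9 members, a GC box upstream of 4, an E-box upstream of 7 and the STAT site upstream of none. Counted by window, 2 of the 12 held a TATA box, 5 a GC box, 7 an E-box and none the STAT site. Over all 32851 windows of the same length, which compare with these counts by window, 12.4% held a TATA box, 32.7% a GC box, 66.2% an E-box and 7.02% the STAT site.

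Values are in TPM, a gene's length-normalised share of the transcripts of a library, and the read depth behind them is unknown. Cavin1 stood at 0.284, 0.0905 and 0.0254 TPM in knockout libraries 1, 2 and 3 against 45.2, 40.0 and 42.2 TPM in wild-type libraries 1, 2 and 3, so no library went against its genotype label. Transcripts of the mitochondrial genome took 39.0 to 45.7% of the TPM in knockout libraries and 43.0 to 52.3% in wild-type libraries, which moves the shares of all other genes. Myh7, the heavy chain of slow fibres, stood at 2196 to 3291 TPM in knockout and 1702 to 2703 TPM in wild-type libraries, and Myh2 at 1203 to 1838 TPM and 1209 to 1610 TPM. Myh4, the heavy chain that predominates in fast quadriceps fibres, was at 238, 580.1 and 346 TPM in knockout libraries but at 6.43, 194 and 4.21 TPM in wild-type libraries. In mice Myh7 is abundant in soleus and scarce in most of the quadriceps, and which muscle the repeated values came from is not given in the sources used here. Knockout library 1 also held liver transcripts, summing over 6 markers to 38.2 TPM, against 1.08 and 1.71 TPM in the other knockout libraries and 0.504 to 0.559 TPM in wild-type libraries.

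In the knockout 8 of the 9 members rose (limma on log2(TPM + 1), Benjamini-Hochberg adjusted p under 0.05), none fell, and Igf2 did not pass. All 9 met the filter of at least 1 TPM in at least 3 libraries, none of them through the knockout libraries alone. The same 8 members had knockout values that did not overlap the wild-type values. These counts have to be read against a comparison in which 36.3% of the 11056 genes tested were called higher and 2.92% lower, and in which 48.7% were higher and 4.83% lower without overlap of the groups. The median log2 fold change was 0.83 over the 9 members and 0.33 over all genes tested. By rank among all genes tested, the fold changes ran from percentile 22.0 for Igf2 and 69.8 for Igfbp5 up to 94.2 for Igf1, 95.4 for Igfbp6 and 98.9 for Igfbp4. For a single gene, an exact permutation test of 3 against 3 libraries cannot go below p = 0.1, the value each of the 8 reached.

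**Figure D1:**
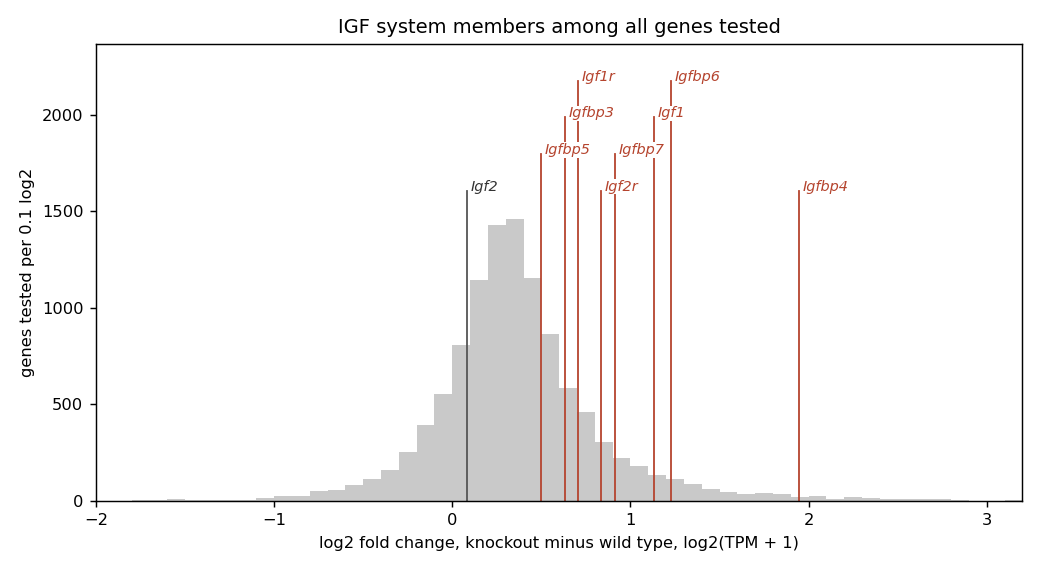
Histogram of the log2 fold change (knockout minus wild type, log2(TPM + 1)) of the 11056 genes tested, in bins of 0.1, with each IGF system gene as a vertical line, red where called higher and dark grey where not called; line heights only separate the names, and 18 genes lie outside the plotted range. Igf2 lies at 0.09, left of the peak, Igfbp4 at 1.94 in the right tail, and the other 7 members lie between 0.50 and 1.23.

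The 2 ligands behaved unlike each other. Igf1 (ENSMUSG00000020053, protein coding, chromosome 10, 87858265 to 87937042, plus strand, GRCm38) is the growth hormone-responsive ligand that muscle also makes locally. It stood at 3.15, 5.17 and 2.88 TPM in knockout libraries 1, 2 and 3, against 1.14, 1.24 and 0.969 TPM in wild-type libraries 1, 2 and 3. Each knockout value was above all wild-type values, with knockout library 2 the highest. Its mean was 3.73 ± 1.25 TPM in the knockout and 1.12 ± 0.136 TPM in wild type (SD, n = 3 each), a ratio of 3.35. In log2(TPM + 1), where the added 1 TPM damps changes at such low levels, the difference was 1.13 (SE 0.18, limma adjusted p = 0.00057). Liver is the main source of circulating IGF1, and knockout library 1 held liver transcripts. Without that library the log2 fold change was 1.21 (limma adjusted p = 0.0017). Any part of liver RNA in the values of the members was not tested.

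Igf2 (ENSMUSG00000048583, protein coding, chromosome 7, 142650766 to 142666816, minus strand), the imprinted ligand that drives fetal growth, stood at 5.09, 5.32 and 5.66 TPM in knockout libraries and at 4.31, 5.54 and 5.18 TPM in wild-type libraries. The groups overlapped. Its log2 fold change was 0.09 (SE 0.14, 95% interval -0.22 to 0.40, limma adjusted p = 0.63), and its sign depended on the scale, at -0.08 with libraries scaled over nuclear genes alone, -0.26 after trimmed-mean rescaling and -0.33 after quantile normalization, none of which passed. A plain ratio within a library does not depend on that scale. The permutation tests of this and the other ratios used log2 ratios with 1 TPM added to each gene, which at low levels do depend on it. The Igf1 to Igf2 ratio was 0.620, 0.971 and 0.508 in knockout libraries, against 0.264, 0.223 and 0.187 in wild-type libraries, without overlap (exact permutation test, two-sided p = 0.1, the smallest possible). Igf2 outnumbered Igf1 per transcript length in each of the 6 libraries, by less in the knockout.

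**Figure D2:**
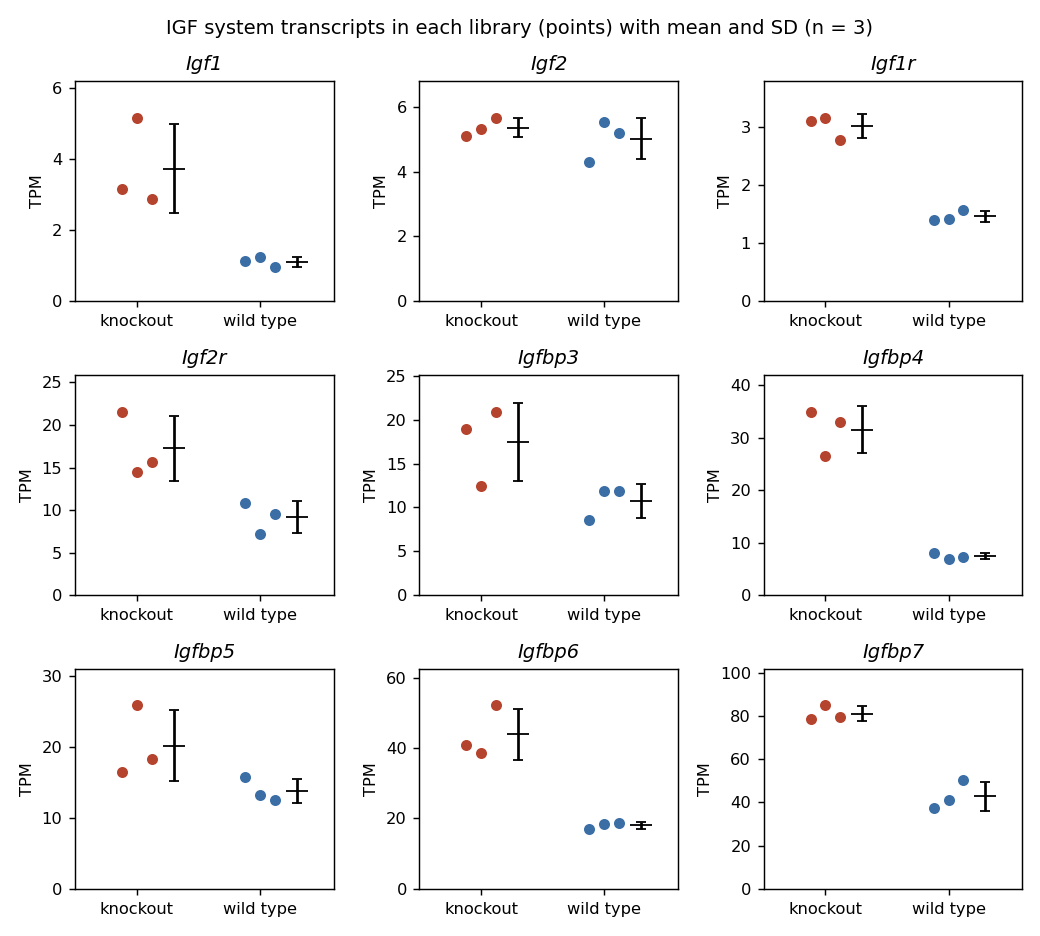
TPM of each of the 9 IGF system genes in the 3 knockout libraries (red points, left) and the 3 wild-type libraries (blue points, right), with the mean and SD of each group in black; each panel has its own axis from 0. The groups are apart in the panels other than that of Igf2, narrowly for Igfbp3 (12.4 against 11.9 TPM) and Igfbp5 (16.5 against 15.7 TPM).

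Both receptors rose. Igf1r (ENSMUSG00000005533, chromosome 7, 67952827 to 68233668, plus strand), the signalling receptor, had 3.11, 3.17 and 2.78 TPM in knockout libraries, against 1.41, 1.42 and 1.57 TPM in wild-type libraries. The lowest knockout value was above the highest wild-type value by more than the range of either group (log2 fold change 0.70, SE 0.13, limma adjusted p = 0.0016). Igf2r (ENSMUSG00000023830, chromosome 17, 12682406 to 12769664, minus strand), the clearance receptor, was at 21.6, 14.5 and 15.7 TPM in knockout libraries and at 10.9, 7.18 and 9.58 TPM in wild-type libraries. Its log2 fold change was 0.83 (SE 0.19, limma adjusted p = 0.0054). Knockout library 1 was the highest for Igf2r, and without it the log2 fold change was 0.67 (limma adjusted p = 0.021). The call for Igf1r was lost after quantile normalization (log2 fold change 0.28, limma adjusted p = 0.083), and that for Igf2r after trimmed-mean rescaling (0.45, limma adjusted p = 0.057).

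Within libraries the 2 receptors kept overlapping proportions. The Igf1r to Igf2r ratio was 0.144, 0.219 and 0.177 in knockout libraries and 0.129, 0.197 and 0.164 in wild-type libraries. The knockout minus wild-type difference of its log2 ratio, with 1 TPM added to each gene, was -0.13 (exact permutation test, two-sided p = 0.6). Its sign turned without knockout library 1 (0.02), without wild-type library 2 (0.007) and with 0.1 TPM added (0.10).

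The binding proteins spanned the largest and the smallest of the increases. Igfbp4 (ENSMUSG00000017493, chromosome 11, 99041244 to 99054392, plus strand), which mostly restrains ligand action until it is cleaved by the protease PAPP-A, was at 35.0, 26.5 and 33.0 TPM in knockout libraries, against 8.03, 6.93 and 7.24 TPM in wild-type libraries. The groups lay far apart, with the lowest knockout value at 26.5 TPM and the highest wild-type value at 8.03 TPM. Its means of 31.5 ± 4.48 TPM in the knockout and 7.40 ± 0.570 TPM in wild type (SD, n = 3 each) differed 4.26-fold, and the log2 fold change was 1.94 (SE 0.15, limma adjusted p = 5.6e-06). By p-value it ranked 68 among the 11056 genes tested.

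Igfbp6 (ENSMUSG00000023046, chromosome 15, 102144362 to 102149511, plus strand), which binds IGF2 in preference to IGF1, was at 40.9, 38.6 and 52.1 TPM in knockout libraries and at 16.9, 18.5 and 18.6 TPM in wild-type libraries. The groups did not overlap, and the means differed 2.44-fold (log2 fold change 1.23, SE 0.15, limma adjusted p = 0.00013). Igfbp7 (ENSMUSG00000036256, chromosome 5, 77349240 to 77408041, minus strand), a secreted protein with low affinity for IGFs that is abundant in vascular endothelium, was at 78.7, 85.0 and 79.6 TPM in knockout libraries and at 37.4, 41.1 and 50.3 TPM in wild-type libraries. It was the most abundant member in each of the 6 libraries, and its log2 fold change was 0.91 (SE 0.15, limma adjusted p = 0.00086).

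Igfbp3 and Igfbp5 changed least among the members called. Igfbp3 (ENSMUSG00000020427, chromosome 11, 7206086 to 7213923, minus strand), the main carrier of IGFs in serum, was at 18.9, 12.4 and 20.9 TPM in knockout libraries and at 8.53, 11.8 and 11.9 TPM in wild-type libraries (log2 fold change 0.63, SE 0.20, limma adjusted p = 0.028). Igfbp5 (ENSMUSG00000026185, chromosome 1, 72857932 to 72874884, minus strand), which myoblasts induce as they differentiate, was at 16.5, 25.9 and 18.3 TPM in knockout libraries and at 15.7, 13.3 and 12.5 TPM in wild-type libraries (0.50, SE 0.18, limma adjusted p = 0.046). Knockout library 2 was the lowest of its group for Igfbp3 and the highest for Igfbp5. The Igfbp3 call was lost without knockout library 1 (log2 fold change 0.56), knockout library 3 (0.49) or wild-type library 1 (0.49), and the Igfbp5 call without knockout library 2 (0.31), knockout library 3 (0.55), wild-type library 1 (0.59), wild-type library 2 (0.47) or wild-type library 3 (0.43). Both calls were also lost after trimmed-mean rescaling, quantile normalization and scaling over nuclear genes alone.

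Summed over the 5 binding proteins, 190.04, 188 and 204 TPM were found in knockout libraries and 86.6, 91.7 and 100.5 TPM in wild-type libraries. The make-up of that sum differed mainly in Igfbp4, which was 18.4, 14.1 and 16.2% of it in knockout libraries and 9.28, 7.56 and 7.21% in wild-type libraries. Igfbp7 made up 39.0 to 45.1% in the knockout and 43.2 to 50.1% in wild type, and Igfbp6 20.5 to 25.6% and 18.5 to 20.2%. The summed ligands were at 8.24, 10.5 and 8.54 TPM in knockout libraries and at 5.45, 6.78 and 6.15 TPM in wild-type libraries.

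**Figure D3:**
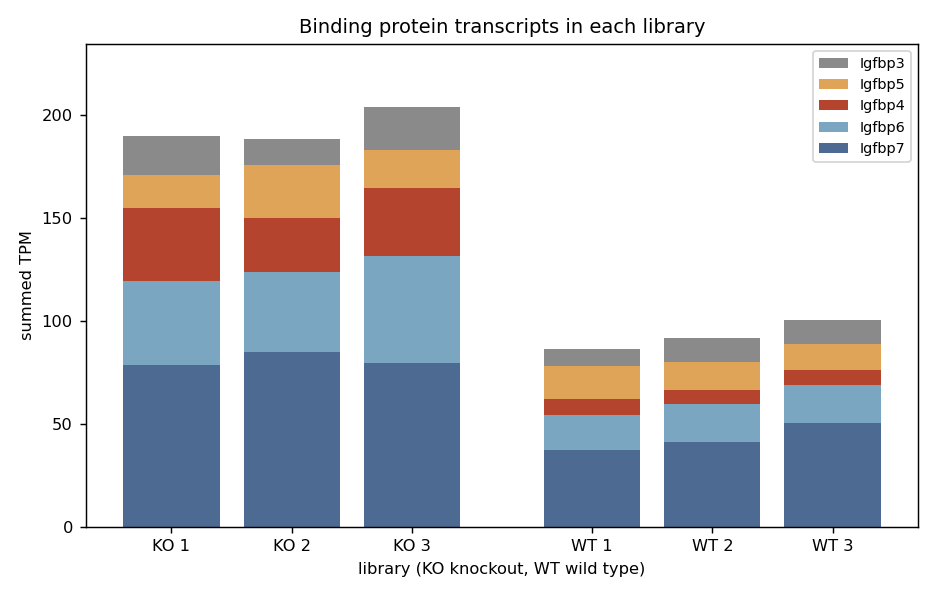
Stacked TPM of the 5 binding protein genes in each knockout library (left) and each wild-type library (right). The knockout stacks reach 188 to 204 TPM and the wild-type stacks 86.6 to 100.5 TPM, with the Igfbp4 block (dark red) at 26.5 to 35.0 TPM against 6.93 to 8.03 TPM.

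Of the binding proteins set against each other within libraries, Igfbp5 and Igfbp4 changed places. The Igfbp5 to Igfbp4 ratio was 0.470, 0.978 and 0.553 in knockout libraries, against 1.96, 1.92 and 1.73 in wild-type libraries (exact permutation test, two-sided p = 0.1, the smallest possible). The Igfbp6 to Igfbp3 ratio was 2.16, 3.10 and 2.49 in knockout libraries and 1.98, 1.57 and 1.57 in wild-type libraries (exact permutation test, two-sided p = 0.1). Both ratios, like that of Igf1 to Igf2, were without overlap between the groups and kept their sign with any 1 library left out. With 4 ratios compared and 0.1 as the smallest possible p, none could pass a threshold of 0.05.

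By mean level the order in the knockout was Igfbp7, Igfbp6, Igfbp4, Igfbp5, Igfbp3, Igf2r, Igf2, Igf1 and Igf1r, from 81.1 down to 3.02 TPM. In wild type they ran Igfbp7, Igfbp6, Igfbp5, Igfbp3, Igf2r, Igfbp4, Igf2, Igf1r and Igf1, from 42.9 down to 1.12 TPM. By mean level Igfbp4 stood at place 3 in the knockout and at place 6 in wild type. Neighbours whose libraries overlapped in level were Igfbp5 with Igfbp3, Igfbp3 with Igf2r, Igf2 with Igf1 and Igf1 with Igf1r in the knockout, and Igfbp3 with Igf2r and Igf2r with Igfbp4 in wild type.

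The number of members called differed with the scaling of the libraries. After trimmed-mean rescaling, which put that median at -0.02, 5 members were higher and none lower, where 13.8% of genes tested were called higher and 14.4% lower. After quantile normalization, with a median of all genes of -0.04, 5 were higher and none lower, against 12.4% and 13.1% of genes tested. Scaled over nuclear genes alone, 6 were higher and none lower, against 23.9% and 6.89%. With no filter on low values 5 were higher, against 11.9% of genes higher and 0.780% lower. Without knockout library 1 and wild-type library 2 together 5 were higher, against 16.0% and 2.04%. Igf1, Igfbp4, Igfbp6 and Igfbp7 were called higher at an adjusted p under 0.05 in each alternative in which they were tested, but Igfbp7, at 0.91, was below a log2 fold change of 1 where that was asked for as well. Their log2 fold changes after trimmed-mean rescaling were 0.86, 1.56, 0.83 and 0.51.

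**Figure D4:**
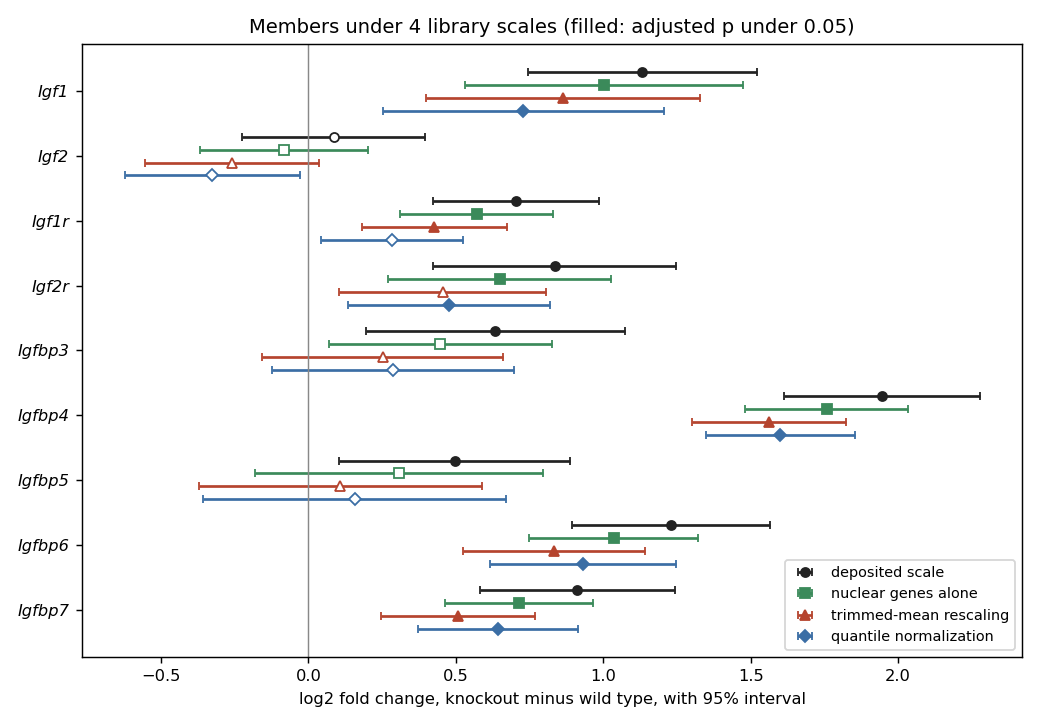
Log2 fold change (knockout minus wild type, log2(TPM + 1)) of each member with its 95% interval from limma, on the deposited scale, with libraries scaled over nuclear genes alone, after trimmed-mean rescaling and after quantile normalization; filled symbols passed an adjusted p of 0.05. Igfbp4 stays at 1.56 or more on all 4 scales, while Igf2 is at 0.09 on the deposited scale and below 0 on the other 3.

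Genes that control IGF availability came from a list of 12, of which 4 met the filter. Of these, 3 rose and none fell, beside 36.3% of all genes called higher and 2.92% lower, with the other, Htra1, at a log2 fold change of 0.14 (limma adjusted p = 0.48). Stc1, a stanniocalcin that inhibits PAPP-A, was at 5.53, 4.42 and 5.83 TPM in knockout libraries, against 0.416, 0.418 and 0.586 TPM in wild-type libraries (log2 fold change 2.08, SE 0.14, limma adjusted p = 3.1e-06). Stc2, its relative with the same target, was at 1.78, 1.21 and 1.81 TPM in knockout and 0.776, 0.371 and 0.530 TPM in wild-type libraries (0.74, limma adjusted p = 0.0030), and lost its call after quantile normalization (0.30, limma adjusted p = 0.14). Both were under 1 TPM in all wild-type libraries and so met the filter through the knockout alone, where being higher was a condition of being tested. With any 1 knockout library left out neither was tested, which left 1 call in the list. Htra3, a secreted serine protease with an IGF-binding-protein-like domain, averaged 23.3 ± 2.86 TPM in the knockout and 12.2 ± 2.37 TPM in wild type (SD, n = 3 each; log2 fold change 0.89, limma adjusted p = 0.0019).

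The remaining 8 genes of that list were not tested. Pappa itself was at 0.029 TPM or less in each of the 6 libraries, and Igfbp1 was at 0 or not listed in 5 of the 6. Igfbp2 stood at 0.161 to 0.466 TPM in the knockout and 0.0311 to 0.175 TPM in wild type. Igfals, the liver protein that completes the serum complex of IGFs with Igfbp3, was at 0.188, 1.32 and 0.531 TPM in knockout libraries and at 0.541, 0.409 and 0.715 TPM in wild-type libraries.

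Of 8 growth hormone axis genes 7 were tested, of which 5 rose, none fell and 2 did not pass, where 36.3% of all genes tested were called higher and 2.92% lower. Those that rose included 3 feedback inhibitors of cytokine receptors. Cish was at 6.96, 8.32 and 3.26 TPM in knockout libraries and at 1.13, 0.636 and 1.36 TPM in wild-type libraries (log2 fold change 1.75, SE 0.26, limma adjusted p = 0.00036). Socs3 averaged 3.24 ± 0.485 TPM in the knockout and 0.842 ± 0.389 TPM in wild type (log2 fold change 1.22, limma adjusted p = 0.00026), and Socs2 averaged 5.98 ± 1.33 and 2.64 ± 0.632 TPM (0.94, limma adjusted p = 0.0024; SD, n = 3 each). The kinase Jak2 (0.75) and the transcription factor Stat5b (0.54) were the other 2. Jak2 lost its call after quantile normalization (0.37, limma adjusted p = 0.072) and trimmed-mean rescaling (0.38, limma adjusted p = 0.053). Stat5b lost its call on those scales (0.20 and 0.15), on the nuclear scale (0.35), with no filter (limma adjusted p = 0.052) and without knockout library 3 (0.056) or wild-type library 1 (0.083). Socs2 lost its call after quantile normalization (0.53, limma adjusted p = 0.096) and with no filter (limma adjusted p = 0.054). Ghr, the growth hormone receptor, stood at 28.9, 29.3 and 25.3 TPM in knockout and 27.8, 29.8 and 31.6 TPM in wild-type libraries and did not pass on the deposited scale (log2 fold change -0.09, limma adjusted p = 0.60). After trimmed-mean rescaling it was called lower (-0.49, limma adjusted p = 0.0098), and the list then had 3 higher and 1 lower, against 13.8% and 14.4% of all genes. After quantile normalization the list had 2 higher and 1 lower, against 12.4% and 13.1%.

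Receptor signalling genes mostly did not pass. Of 37 tested, 8 were higher, 1 lower and 28 not called on the deposited scale, where 36.3% of all genes were called higher and 2.92% lower. The list's median log2 fold change was 0.32, beside 0.33 for all genes. That median turned to -0.05 after trimmed-mean rescaling, with 4 higher and 2 lower, against 13.8% and 14.4% of all genes. Without wild-type library 2 the list had 5 calls, 4 higher and 1 lower, against 23.0% and 2.26% of all genes. Grb14, an adaptor that inhibits insulin receptor signalling, fell to 20.3, 28.7 and 12.2 TPM in knockout libraries, against 70.6, 52.8 and 61.6 TPM in wild-type libraries (log2 fold change -1.62, SE 0.25, limma adjusted p = 0.00050). Eif4ebp1, a repressor of translation that the MTOR kinase switches off, was at 91.5, 60.6 and 91.9 TPM in knockout and 19.8, 22.1 and 23.9 TPM in wild-type libraries (1.82, SE 0.18, limma adjusted p = 2.6e-05). Mapk3, an ERK kinase, averaged 23.4 ± 1.93 TPM in the knockout and 12.2 ± 0.644 TPM in wild type (SD, n = 3 each; 0.88, limma adjusted p = 0.00058). All 3 kept their calls under the alternatives tried, except that Mapk3 was below a log2 fold change of 1 where that was asked for as well.

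**Figure D5:**
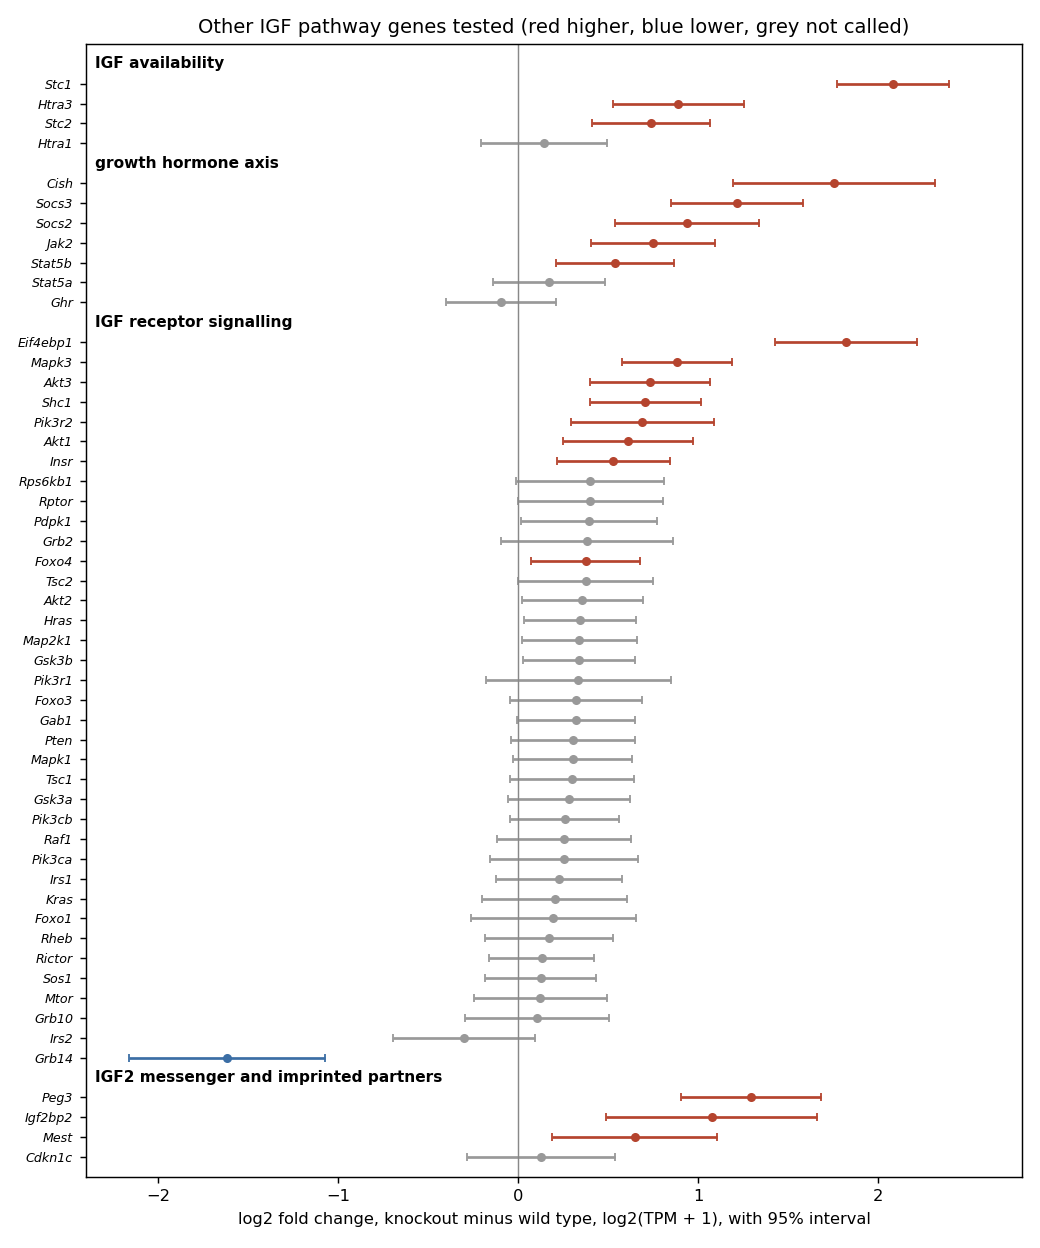
Log2 fold change (knockout minus wild type, log2(TPM + 1)) with 95% interval from limma for the tested genes of the 4 pathway lists, red where called higher, blue where called lower and grey where not called, on the deposited scale. Stc1 (2.08), Eif4ebp1 (1.82) and Cish (1.75) lie farthest right, Grb14 (-1.62) is the single gene called lower, and most signalling genes lie near the median of all genes, 0.33.

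Among 10 genes linked to IGF2 by its messenger or by imprinting, 9 were listed, 4 were tested, 3 of these rose and none fell, beside shares of 36.3% higher and 2.92% lower over all genes. Peg3, an imprinted zinc finger gene, was at 6.65, 8.28 and 10.7 TPM in knockout libraries and at 2.31, 3.17 and 3.10 TPM in wild-type libraries (log2 fold change 1.29, limma adjusted p = 0.00025). Igf2bp2, which encodes an RNA-binding protein that binds the Igf2 messenger, was at 4.14, 1.83 and 1.25 TPM in knockout and 0.384, 0.274 and 0.982 TPM in wild-type libraries (1.08, limma adjusted p = 0.0091), met the filter through the knockout alone, and lost its call after quantile normalization (0.63, limma adjusted p = 0.12). Mest, also imprinted, averaged 3.37 ± 1.09 TPM in the knockout and 1.77 ± 0.590 TPM in wild type with groups that overlapped (SD, n = 3 each; 0.65, limma adjusted p = 0.031). It lost its call without knockout library 1 (limma adjusted p = 0.096), knockout library 2 (0.074) or wild-type library 2 (0.12), and also with no filter (0.19), on the nuclear scale (0.11), after trimmed-mean rescaling (0.24) and after quantile normalization (0.47). Without knockout library 1 or knockout library 2 the list had 1 call of 3 tested. The remaining tested gene, Cdkn1c, stood at a log2 fold change of 0.13 (limma adjusted p = 0.59).

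Markers of several other cell types were also higher, and in bulk muscle more cells of a type and more RNA per cell cannot be told apart. Over all genes tested 36.3% were called higher and 2.92% lower. The smooth muscle and tendon lists, with 2 of 7 and 2 of 5 tested called higher, were near the first of these shares. All 12 markers of fibro-adipogenic progenitors and fibroblasts were called higher, with summed levels of 984 to 1036 TPM in knockout and 327 to 358 TPM in wild-type libraries. All 12 macrophage and monocyte markers were called higher, at 198 to 247 TPM and 39.3 to 46.4 TPM, 3 of them having met the filter through the knockout alone. Of 11 endothelial markers 9 were higher and 1, Kdr, lower (log2 fold change -0.997), with sums of 240.3 to 279 TPM and 129 to 147 TPM. After quantile normalization 7 endothelial markers were higher and 2 lower, against 12.4% and 13.1% of all genes. After trimmed-mean rescaling 8 were higher and 2 lower, against 13.8% and 14.4%. Of 6 tested satellite cell and regenerating fibre markers out of 10 listed, 4 were higher (Myod1, Myog, Myh3 and Cdh15), with sums of 32.2 to 60.2 TPM and 11.4 to 22.2 TPM. Smooth muscle and pericyte markers summed to 231 to 245 TPM and 195 to 205 TPM, with 2 of 7 tested called higher (Pdgfrb and Abcc9), 1 of 7 without knockout library 1 or 3 or wild-type library 1 or 2. Neither kept its call after quantile normalization or trimmed-mean rescaling, where the list's median log2 fold change was -0.10 and -0.13. Of 5 tendon markers 2 were higher, Scx and Thbs4 (138 to 210 TPM and 49.9 to 79.1 TPM over the list). The tendon list's median log2 fold change was 0.09, beside 0.33 for all genes, and its lowest was -0.53. That median was -0.23 after quantile normalization and -0.31 after trimmed-mean rescaling. A tendon marker was called lower after quantile normalization, where 13.1% of all genes were, and without knockout library 2, where 3.27% were. On the deposited scale none of 4 Schwann markers was called by limma, and none of 5 adipocyte markers was (467 to 541 TPM and 384 to 510 TPM), while at an unadjusted p under 0.05 each list had 1. Without knockout library 2, 4 of the 5 adipocyte markers were called higher. Of the 4 Schwann markers, 2 were called lower after quantile normalization, 2 after trimmed-mean rescaling and 1 on the nuclear scale. In the other direction, 1 was called higher without knockout library 2 and 1 without wild-type library 3. No marker of these lists was at 0 in all libraries. The median log2 fold change of the fibroblast list was 1.26, that of the macrophage list 2.03 and that of the endothelial list 0.87, beside 1.94 for Igfbp4, 1.23 for Igfbp6, 1.13 for Igf1 and 0.91 for Igfbp7. The part of these cells in the IGF system values was not tested.

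The genes whose values over the 6 libraries were most like those of Igf1, by root mean square difference of centred log2(TPM + 1), were Lilrb4a (0.09), a myeloid receptor, C1qtnf3 (0.11), a secreted protein related to adiponectin, and Cd93 (0.12), an endothelial and myeloid surface protein. Lilrb4a was at 3.61, 4.64 and 2.96 TPM in knockout libraries and at 1.18, 1.36 and 1.19 TPM in wild-type libraries. C1qtnf3 was at 1.72, 3.02 and 1.73 TPM in knockout libraries and at 0.518, 0.282 and 0.188 TPM in wild-type libraries. It met the filter through the knockout alone, where being higher was a condition of being tested. The log2 fold changes of Lilrb4a, C1qtnf3 and Cd93 were 1.06, 1.23 and 1.02, so the likeness to Igf1 includes the shared difference between the groups. Those most like Igf2 were Gclc (0.05), Rtcb (0.05) and Art3 (0.05), none of which was called (limma adjusted p = 0.47, 0.40 and 0.35). With a profile as flat as that of Igf2 the likeness describes little more than the lack of a call.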

How the data were processed

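The deposited values were read as TPM from the values alone, since no header or label names the unit: they are fractional and sum to between 843194 and 872482 per library. Per the submitters' processing notes, STAR 2.5.3a and kallisto 0.43.0 were used with builds GRCm38 and mm10; the step of each is not given in the sources used here. TPM keeps no depth, so no counting interval is given.

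Genes missing from a file were set to 0. A gene was tested where 3 or more of the 6 libraries reached 1 TPM. The test was limma 3.58.1 (R 4.3.3) on log2(TPM + 1), with an intensity trend and 4 residual degrees of freedom, and p-values were adjusted over all genes tested by the Benjamini-Hochberg method, called under 0.05. The code was tested on simulated data. Alternatives left out the trend, used quantile normalization, rescaled by a trimmed mean that dropped 30% of ratios and 5% of levels at each end, or used nuclear genes alone as the scale. Others removed the filter or raised it to 10 TPM, added 0.1 or 5 TPM before the log, put the replicate number in as a block, asked for a log2 fold change of at least 1, or left libraries out. Exact permutation tests used scipy 1.17.1.

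Positions come from GENCODE M21 (GRCm38) and upstream sequences from RefSeq (GRCm38.p6). The members, lists and alternatives were chosen with earlier results of these data known. The genes named were the members, Cavin1, the 3 called genes of smallest adjusted p in each pathway list, the 3 genes most like Igf1 and Igf2, and 3 myosins. Other genes named from the pathway and marker lists were chosen after their values were seen.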

Additional observations from a re-analysis of the deposited data

How the results depend on the processing

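No member called higher turned lower under any alternative. Igf1, Igfbp4, Igfbp6 and Igfbp7 kept their calls at an adjusted p under 0.05 in each alternative in which they were tested. The calls of Igfbp3 and Igfbp5 were lost in many of the alternatives, and those of Igf1r and Igf2r in fewer. Log2 fold changes that lost their call or changed sign follow. After quantile normalization Igf2 stood at -0.33, Igf1r at 0.28, Igfbp3 at 0.29 and Igfbp5 at 0.16; after trimmed-mean rescaling Igf2 at -0.26, Igf2r at 0.45, Igfbp3 at 0.25 and Igfbp5 at 0.11; on the nuclear scale Igf2 at -0.083, Igfbp3 at 0.45 and Igfbp5 at 0.31. These values of Igf2 changed sign, and the others lost their call. With no filter Igf2r (0.83), Igfbp3 (0.63) and Igfbp5 (0.50) lost their call, and so they did with knockout library 1 and wild-type library 2 both removed, at 0.52 for Igf2r, 0.63 for Igfbp3 and 0.60 for Igfbp5. With 1 library left out at a time, Igfbp3 ran from 0.49 to 0.85, Igfbp5 from 0.31 to 0.62, Igf2 from -0.00098 to 0.15 (below 0 without wild-type library 1) and the log2 Igf1r to Igf2r ratio from -0.27 to 0.016 (above 0 without knockout library 1 or, at 0.007, wild-type library 2). That ratio was 0.10 with a pseudocount of 0.1. The Igfbp3 call was lost without knockout library 1, knockout library 3 or wild-type library 1. The Igfbp5 call was lost with any 1 library left out other than knockout library 1. The causes were not tested.

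Members called numbered 8, but 5 on the quantile and trimmed-mean scales, 5 with no filter or without both libraries, 3 at a log2 fold change of at least 1, and 6 to 7 with 1 library left out. Genes called numbered 4339, and 2823 after quantile normalization, 2771 with no filter, 1839 with the 10 TPM filter, 1886 without both libraries, 912 at a log2 fold change of at least 1, and 2648 to 4458 with 1 library left out (2648 without knockout library 1, 2724 without knockout library 3, 2784 without wild-type library 2). Over all genes tested the share called in either direction was 39.2%. That share was 25.5% after quantile normalization, 12.6% with no filter, 37.6% with the 10 TPM filter and 18.0% without both libraries. Leaving out 1 library, it lay between 25.1% (without knockout library 1) and 42.1% (without knockout library 2). The share called higher was 22.5% and 38.8% in these 2 settings, the lowest and highest of the 6. Where a log2 fold change of at least 1 was asked for, 861 of the 11056 genes tested were higher and 51 lower. For availability genes 3 of 4 tested became 1 of 1 with the 10 TPM filter and 1 of 2 without both libraries. At a log2 fold change of at least 1 it was 1 of 4. With 1 library left out the count ran from 1 to 3. It was 1 of 2 tested with any 1 knockout library left out, since 2 genes had met the filter through the knockout alone. For the growth hormone axis 5 of 7 tested became 3 of 7 after quantile normalization and 3 of 8 with no filter. The count was 1 of 2 with the 10 TPM filter and 2 of 7 at a log2 fold change of at least 1. For receptor signalling, with 37 tested in each of these settings, 9 became 5 after quantile normalization and without both libraries, and 2 at a log2 fold change of at least 1. With 1 library left out the count ran from 5 (without wild-type library 2) to 12. For the IGF2 partners 3 of 4 tested became 1 of 4 after quantile normalization and 1 of 3 without both libraries. With the 10 TPM filter the count was 0, as none of them was tested. With 1 library left out it ran from 1 (of 3 tested, without knockout library 1 or 2) to 3.

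With the replicate number as a block 8 members and 4373 genes were called. The same-number correlations of deviations between knockout and wild type were 0.03, -0.01 and 0.04, and no library correlated best with its own number. Correlations this weak, from so few libraries, cannot decide whether the numbers pair the samples. Igf1, Igf2 and Igf1r have no value under the 10 TPM filter, and Cavin1 none without a wild-type library. The unknown depth limits what can be said of genes under 1 TPM.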
